A study of Homo sapiens with 9 samples.

Results

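TIF-Seq2 reads both ends of one RNA molecule, its transcription start site (5′ end) and its poly(A) site (3′ end), as a read pair. The read pairs described here are those whose 2 ends lay more than 2 Mb apart on one chromosome and strand of the human genome (hg38). There were 104732 of them among 15358140 read pairs, or 0.682%, and they formed 84500 distinct combinations of a 5′ and a 3′ position (90159 when each library is counted separately). They came from 4 libraries of K562, an established erythroleukemia cell line that carries the BCR-ABL1 fusion: DMSO replicates 1 and 2 had received the DMSO vehicle, and imatinib replicates 1 and 2 had received 1 μM imatinib, a tyrosine kinase inhibitor that blocks ABL1, all for 24 h. All 4 libraries are of the same line, and the study's methods call the replicates biological. The members were chosen by their distance, so the distance itself is given as a description with no test.

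Few human genes are long enough to give one RNA whose ends lie so far apart, and the usual spliced mRNA has its ends within the span of one gene. A pair of distant ends can enter such data in several ways. A chromosome can be rearranged in the cell line, the ends of 2 different cDNAs can be joined during the library preparation, or a read can be placed on a copy of its gene elsewhere on the chromosome. Many copies of the last kind are processed pseudogenes, which are mRNAs that were reverse transcribed and inserted elsewhere in the genome, often together with their poly(A) tail. Highly transcribed genes with short mRNAs, above all those of ribosomal proteins, have the most such copies. K562 cells also transcribe embryonic and fetal globin genes, whose RNAs rise when BCR-ABL1 is blocked.

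The sequences at the distant 3′ ends are shown first, since they show how the gene pairs that recurred most often differ in kind. For each pair the first line gives 30 bases of hg38 at a frequently used poly(A) site of the gene in which the 5′ end lay, and the second line the 30 bases at the distant 3′ end, both 5′ to 3′ on the transcribed strand. Capitals mark the bases that are the same in both lines. RPLP2, RPL23A and RPS18 encode ribosomal proteins and UBB a polyubiquitin precursor, and their distant partners are copies of the same genes. These copies differed from the gene's own end by 0, 1, 0 and 1 of 30 bases.
RPLP2, chr11:812845-812874, plus strand: TCCCCTGCAAATAAAGCCTTTTTACACATC
ENSG00000240652, chr11:107908773-107908802, plus strand: TCCCCTGCAAATAAAGCCTTTTTACACATC
RPL23A, chr17:28723906-28723935, plus strand: aATATATATATATATATATCTTTTCACCAT
RPL23AP74, chr17:61070382-61070411, plus strand: tATATATATATATATATATCTTTTCACCAT
RPS18, chr6:33276476-33276505, plus strand: CCTTGTCTGTTAATAAATAGTTTATATACC
RPS18P9, chr6:149594553-149594582, plus strand: CCTTGTCTGTTAATAAATAGTTTATATACC
UBB, chr17:16382710-16382739, plus strand: AAAATGTTAATAAAGGTTTCGTTGcATGGT
UBBP4, chr17:22205121-22205150, plus strand: AAAATGTTAATAAAGGTTTCGTTGaATGGT

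A second set of distant ends lay inside genes that are no annotated copy of the first gene, yet the last bases there resembled the first gene's own poly(A) site. MYO3B encodes a myosin and SLC30A7 a zinc transporter of the Golgi. UQCRH is a subunit of respiratory complex III. The mismatches were 7 and 8 of 30 bases, and they lay mostly upstream of the last bases.
RPL31, chr2:101006389-101006418, plus strand: tCgTcAgATcaAATAAAgTTATAAAATTGC
MYO3B, chr2:170569082-170569111, plus strand: cCtTaAaATacAATAAAtTTATAAAATTGC
UQCRH, chr1:46316745-46316774, plus strand: tCCAtctAaatAAAaGTTCTATGATCTGCA
SLC30A7, chr1:100963654-100963683, plus strand: cCCAataAtggAAAtGTTCTATGATCTGCA

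The next pair is shown as a contrast. RPS14 and RPS23 encode different ribosomal proteins, and even the best alignment of their ends near the distant site had 13 mismatches in 30 bases.
RPS14, chr5:150444242-150444271, minus strand: AATATTttctGTtAAtAaAtTGcctTcATg
RPS23, chr5:82276080-82276109, minus strand: AATATTaatgGTgAAaAcAcTGtagTaATa

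The last sequences come from a site on chromosome 2 that is almost a single run of one base, and all their bases are in capitals. On the minus strand it lay just at the position where 3′ ends were placed most often, and on the plus strand at the position where 5′ ends were placed most often.
3′ ends, chr2:32916242-32916271, minus strand: CCCCCCCCCCCCCCCCCCCGCCCCCCCCCC
5′ ends, chr2:32916244-32916273, plus strand: GGGGGGGGCGGGGGGGGGGGGGGGGGGGGG

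The libraries held 2263121 to 5135829 read pairs each. The share over 2 Mb was 0.534% (95% Wilson interval 0.527 to 0.542) in DMSO replicate 1, 0.723% (0.716 to 0.731) in DMSO replicate 2, 0.812% (0.803 to 0.820) in imatinib replicate 1 and 0.585% (0.575 to 0.595) in imatinib replicate 2. The intervals cover counting error only, and copies made by PCR had been removed through molecular identifiers. The mean was 0.664% ± 0.127 (SD, n = 4). One library of each condition was high and one was low, so the conditions overlapped. The imatinib mean exceeded the DMSO mean by 0.0698 percentage points, a difference smaller than the spread between replicates (two-sided exact permutation test, p = 0.667, where 2 against 2 libraries cannot go below 0.333). Of the 12 erythroid markers checked against the label of the cells, 12 were seen in ordinary pairs, with a sum of 3899 to 4341 read pairs per 1000000 in DMSO and 14101 to 15243 after imatinib. Of the T cell markers 3 of 5 were seen, with CD3E and CD28 at 0, and their sum was 60.7 to 72.5 per 1000000 in DMSO and 4.06 to 5.76 after imatinib. Over the 4 libraries the sum was 94.2 to 143 per 1000000 for fibroblast and epithelium markers, with 4 of 5 seen. It was 37.7 to 132 for monocyte and granulocyte markers (2 of 5 seen) and 12.6 to 22.0 for B cell markers (2 of 5). Megakaryocyte markers had 0.451 to 2.58, with 2 of 3 seen. The part of such other cell type markers in the results below was not tested.

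The number of read pairs fell steeply with distance up to about 1 Mb and much less beyond. It was 22774 per Mb of distance between 0.5 and 1 Mb and 1961 per Mb between 1 and 2 Mb. Past the limit it was 1606 per Mb between 2 and 5 Mb, 1328 between 5 and 10 Mb, 1186 between 10 and 20 Mb and 1021 between 20 and 50 Mb. It then dropped to 523 between 50 and 100 Mb and 164 between 100 and 250 Mb. The median distance of the far pairs was 48.1 Mb and the greatest 249 Mb. There was no gap at the limit itself: the nearest pairs inside it joined a 5′ end outside genes to RPL26 at 2001 kb, TNNI3 to ZNF347 at 2002 kb and FXR1 to ATP11B at 2002 kb. The nearest outside it joined OAZ1 to YJU2 and ENSG00000273734 to YJU2, both at 2000 kb.

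**Figure D1:**
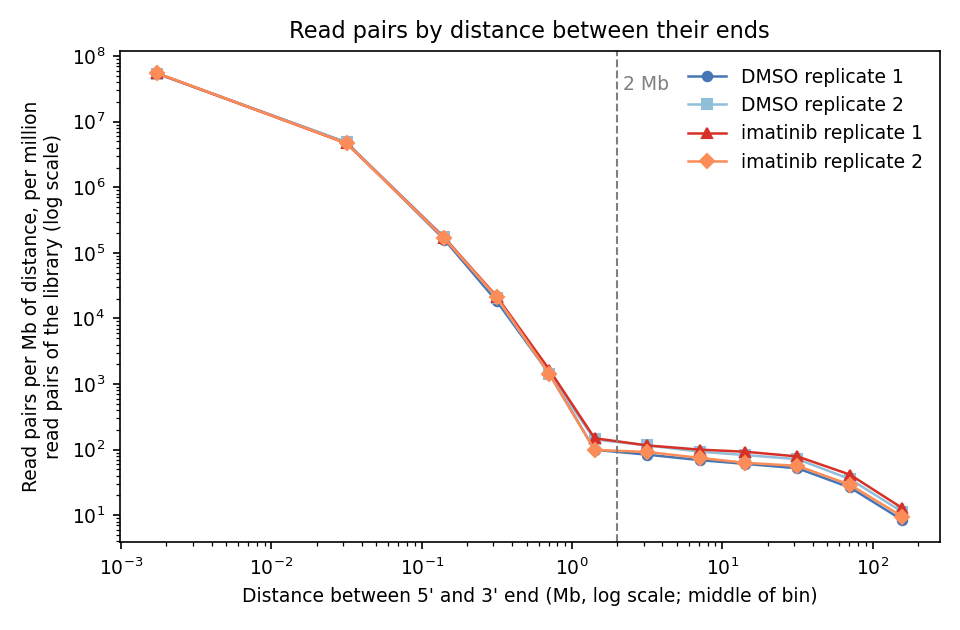
Read pairs per Mb of distance and per 1000000 read pairs of the library (y axis, log scale) against the distance between the ends in Mb (x axis, log scale), one line per library, with the 2 Mb limit dashed. The 4 lines fall together up to about 1 Mb and flatten beyond it, and at 2 to 5 Mb they lie between 83.6 and 116.

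Most far pairs were seen once. A far combination of positions held 1.2 read pairs on average against 3.08 for pairs from 300 bp to 2 Mb, which are called ordinary pairs here, and 94.9% of the far combinations rested on 1 read pair. Of the 84500 distinct combinations 80648 (95.4%) occurred in 1 library and 508 in all 4. Those 508 combinations nevertheless held 11682 of the read pairs.

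By their place in the annotation the 5′ ends of far pairs were closer to ordinary ones than the 3′ ends were. On the strand of the pair 90.7% ± 0.782 (SD, n = 4) of the far 5′ ends lay in a Gencode v44 gene, against 98.9% ± 0.304 of ordinary ones, and 81.1% ± 1.61 lay within 200 bp of an annotated start of that gene, against 88.5% ± 1.35. Of the far 3′ ends 62.1% ± 0.811 lay in a gene, against 98.9% ± 0.285, and 42.0% ± 0.838 lay within 200 bp of an annotated end, against 85.8% ± 0.850. The last difference was -43.8 percentage points, with a range over the libraries of -44.6 to -43.0. A stretch with 7 or more A in the 10 bases downstream followed 20.5% ± 0.866 of the far 3′ ends and 8.30% ± 0.844 of the ordinary ones. Such a stretch is where an oligo(dT) primer can anneal inside a transcript, and processed pseudogenes carry one as well. A run of 10 or more A within the last 40 bases was present at 14.8% ± 0.517 of far and 0.938% ± 0.0256 of ordinary 3′ ends. Each of these 6 differences had the same direction in 4 of 4 libraries. The two-sided exact sign-flip permutation test gave p = 0.125 for each, the smallest that 4 libraries allow, and 0.167 after Benjamini-Hochberg adjustment over 8 tests. With each combination of positions counted once, the difference in A-rich ends was 4.40 percentage points in place of 12.2.

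Genes of ribosomal proteins, which have short and abundant mRNAs, were over-represented at the 5′ ends. The 75 ribosomal protein genes seen there held 30.2%, 30.7%, 34.0% and 37.1% of the far 5′ ends in genes in DMSO replicates 1 and 2 and imatinib replicates 1 and 2. For ordinary pairs the same shares were 11.5%, 10.7%, 10.7% and 13.5%. At the 3′ ends they held 16.3% to 17.5% of far ends in genes and 11% to 13.9% of ordinary ones. Pseudogenes held 23.4% ± 1.74 (SD, n = 4) of the far 3′ ends in genes and 0.697% ± 0.102 of ordinary ones. At the 5′ ends they held 11.3% ± 0.769 and 0.722% ± 0.0820. In each of these shares the range of the 4 far values did not overlap that of the 4 ordinary ones.

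The gene with the most far 5′ ends was RPLP2, with 4469 read pairs (749, 1395, 1634 and 691 in DMSO replicates 1 and 2 and imatinib replicates 1 and 2) to 157 partner genes. RPL23A followed with 1837 (368, 575, 555 and 339). RPS7, another ribosomal protein gene, came next with 1800 (362, 710, 490 and 238) spread over 295 partner genes, and 53.3% of its far 3′ ends lay outside genes. At the 3′ ends the first were the RPLP2 copy ENSG00000240652 with 3823 read pairs (644, 1196, 1397 and 586), RPL23AP74 with 1220 (263, 376, 335 and 246) and HBG2 with 1008 (93, 159, 546 and 210). The 2 pseudogenes had 18 and 6 start genes, and HBG2, a fetal γ globin gene, had 157. The 2 pseudogenes thus drew on few start genes and HBG2 on many.

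By the sequence at their ends the far pairs fell into 6 classes, taken in a fixed order so that each pair counts once. In 6.78% the 40 bases at both ends matched transcripts of a common gene with at most 4 mismatches. In a further 4.63% the last 20 bases differed by at most 3 from one of the 10 most used 3′ ends of the start gene. In 26.4% the 3′ end lay at an A-rich stretch or A run as defined above. In 16.9% both ends lay within 200 bp of annotated ends. In 16.3% both lay in genes but at most 1 of them was that near an annotated end. In 29.0% an end lay outside genes. The 2 classes with matching sequence held 2.37 and 1.87 read pairs per combination, and the other 4 held 1.03 to 1.2. The first class, with 7101 read pairs, does not take in all pairs that match a common gene. By the 100-base comparison given below, 46 gene pairs with 10140 read pairs had a common gene at both ends. Some pairs of this kind therefore lie in the other classes.

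**Figure D2:**
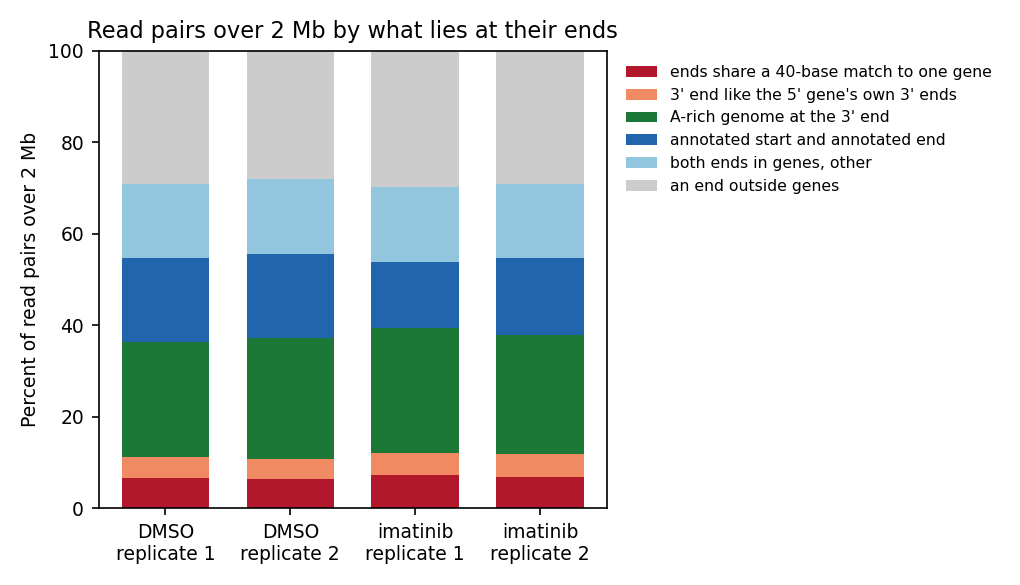
Percent of the read pairs over 2 Mb (y axis) in each of 6 classes of end sequence, one stacked bar per library from 0 to 100%. The bars are alike: the A-rich class spans 25.1% to 27.4%, the class with an end outside genes 28.1% to 29.8%, and the class with a common gene at both ends 6.38% to 7.31%.

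Both ends lay in genes for 56738 far pairs, or 54.2%, which joined 27515 ordered pairs of genes. Of these gene pairs 22107 (80.3%) rested on 1 read pair and 537 were seen in all 4 libraries. If distant ends were joined at random, the number for a gene pair would follow the 5′ total of the first gene and the 3′ total of the second. This expected number was taken from the ordinary pairs of each library and scaled so that its sum equalled the far pairs in genes. A gene pair was called recurrent when it had at least 1 read pair in each of the 4 libraries, at least 10 in all, and at least 10 times the expected number. There were 187 such pairs, 0.68% of all gene pairs over 2 Mb, and they held 14109 read pairs, or 24.9% of those in genes and 13.5% of all far pairs. Of the 187, 46 with 2324 read pairs had an expected number of 0, so the last condition could not fail for them. Since read counts chose them, the counts are a description. By library they held 12.4%, 12.6%, 14.2% and 15.5% of the far pairs. With 3′ ends at 7 or more A left out there were 119 recurrent pairs, 113 of them among the 187, with 5011 read pairs in place of 14109.

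A further 149 gene pairs were in all 4 libraries with at least 10 read pairs but stayed below 10 times the expected number, with 4249 read pairs and a median of 2.23 times. They were mostly pairs of 2 abundant mRNAs, and 131 of the 149 had a ribosomal protein gene at one end or both, against 108 of the 187 recurrent pairs and 25.3% of all gene pairs over 2 Mb. Only 3 had a pseudogene at either end, against 92 of the 187 and 16.8% of all. The expected number is built from ordinary ends, of which pseudogenes held few and ribosomal protein genes many. Both contrasts with the 187 therefore follow in part from the rule itself. The most frequent was RACK1 to RPS23 with 122 read pairs (24, 54, 28 and 16) where 36.8 were expected. RACK1 is a scaffold protein of the small ribosomal subunit. RPS27A to RPL31 had 118 (16, 47, 31 and 24) where 19.0 were expected. RPS18 to RPS12 with 96, RPS7 to RPL31 with 84, RPS23 to RPL37 with 83 and RPL11 to UQCRH with 70 were of the same kind, at 4.98, 6.39, 4.39 and 6.0 times the expected number. Among the most frequent, RPS25 to HBG2, FTH1 to HBG2 and HBZ to RPL13 have a globin gene at one end. The 9 given here lay at 2.47 to 6.39 times the expected number.

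**Figure D3:**
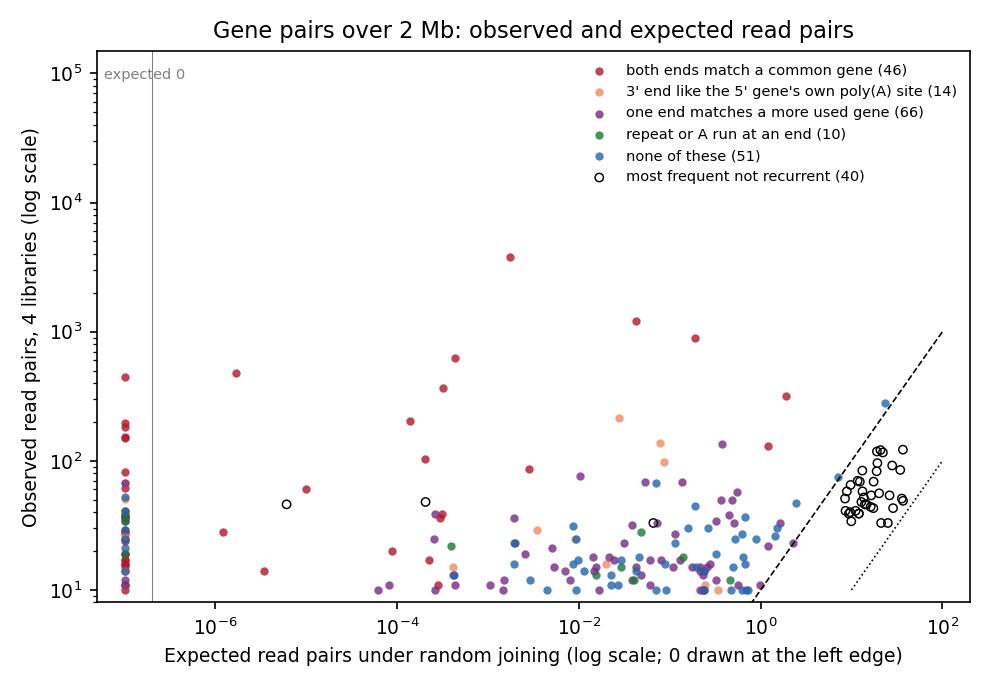
Observed read pairs over 4 libraries (y axis, log scale) against the number expected under random joining (x axis, log scale, with an expected 0 drawn at the left edge) for the 187 recurrent gene pairs, coloured by the sequence at their ends, and the 40 most frequent others (open circles). The dashed line is 10 times the expected number and the dotted line the expected number itself; the pair with the most read pairs has 3773 observed against 0.00175 expected.

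The recurrent pairs were grouped by aligning 100 bases of the genome at their main 5′ and 3′ positions to all annotated transcripts. In 46 of the 187 both ends matched a common gene, and these held 10140 read pairs, 71.9% of the recurrent ones. In 14 more, with 725 read pairs, at least 50% of the 3′ ends resembled the start gene's own poly(A) site. In 66, with 1629 read pairs, one end matched another gene that was used more than the gene it was assigned to. In 10, with 211, an end was a repeat or an A run, and 51, with 1404, had none of these. The 149 frequent pairs below 10 times the expected number had 0, 0, 4, 0 and 145 in the same groups. Copies with few ordinary ends have a low expected number, so this contrast too follows in part from the rule. The counts near the limits were close: RPL23A to RPL27 at 10.5 times and RPL18 to RPL10P16 at 10.2 times lay inside, and TIPRL to H3-3A at 9.58 times lay outside. On the read pair limit, 18 recurrent pairs had 10 read pairs, and 15 gene pairs that met the other conditions had 9.

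RPLP2 to ENSG00000240652 alone gave 3773 read pairs (635, 1176, 1379 and 583; exact 95% Poisson interval of the total 3654 to 3895), where 0.00175 were expected. RPLP2 is an acidic protein of the ribosomal stalk, and ENSG00000240652 is a processed pseudogene 107 Mb downstream on chromosome 11, the second sequence shown above. Set against the ordinary 5′ ends of RPLP2, this was 66.5, 97.1, 118 and 65.1 far pairs per 1000, so replicates of one condition differed by more than the conditions did. The 3′ ends fell on 29 positions, of which the most used held 9.89%, and 97.2% had 7 or more A downstream. This gene pair made up 84.4% of the far 5′ ends of RPLP2 and 98.7% of the far 3′ ends of the copy. The copy itself ended 2 ordinary pairs.

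RPL23A to RPL23AP74 had 1208 read pairs (261, 373, 330 and 244), or 44.4, 47.7, 54.1 and 54.2 per 1000 ordinary RPL23A starts. RPS18 to RPS18P9 had 898 (157, 241, 359 and 141), or 15.2, 21.5, 31.6 and 16.7 per 1000. RPL36 to RPL36P16 had 364 (72, 130, 123 and 39) and UBB to UBBP4 317 (59, 95, 127 and 36), at 17.3 to 31.9 and 12.5 to 25.0 per 1000 starts. In these 4 the 5′ end was in the parent gene and the 3′ end in its copy. The same held for RPL5 to ENSG00000227034, with 154 read pairs (33, 43, 50 and 28).

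In the reverse arrangement the 5′ end lay in the copy and the 3′ end in the parent. RPL5P4 to RPL5 had 197 read pairs (36, 58, 65 and 38) and RPL23AP73 to RPL23A 184 (35, 52, 61 and 36), and neither pseudogene started any ordinary pair. RSF1 to FTH1 had 131 (12, 44, 57 and 18). RSF1 encodes a chromatin remodelling subunit, but the bases at this 5′ end matched FTH1, the ferritin heavy chain. FTH1 was also the gene most used at the 3′ end.

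In another arrangement both ends lay in copies of one parent. FTH1P20 to FTH1P3 had 627 read pairs (77, 202, 252 and 96) across 153 Mb of chromosome 2, more than the 415 ordinary starts of FTH1P20. RPL17P5 to RPL17P7 had 482 (77, 169, 200 and 36), RPS3AP26 to RPS3AP25 442 (88, 171, 136 and 47) and RPS3AP21 to RPS3AP20 202 (29, 78, 74 and 21). RPL17P34 to RPL17P50 had 150 (15, 63, 64 and 8) and RPL7P23 to RPL7P1 87 (11, 38, 31 and 7). RPL12P19 to NBEAL1 had 103 (23, 32, 35 and 13), and both of its ends matched RPL12. ENSG00000279392 to ENSG00000258578 had 82 (22, 36, 14 and 10), and both ends matched UBE2L3, a ubiquitin-conjugating enzyme whose gene is on another chromosome. In such pairs neither end lay in the gene that both resembled.

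**Figure D4:**
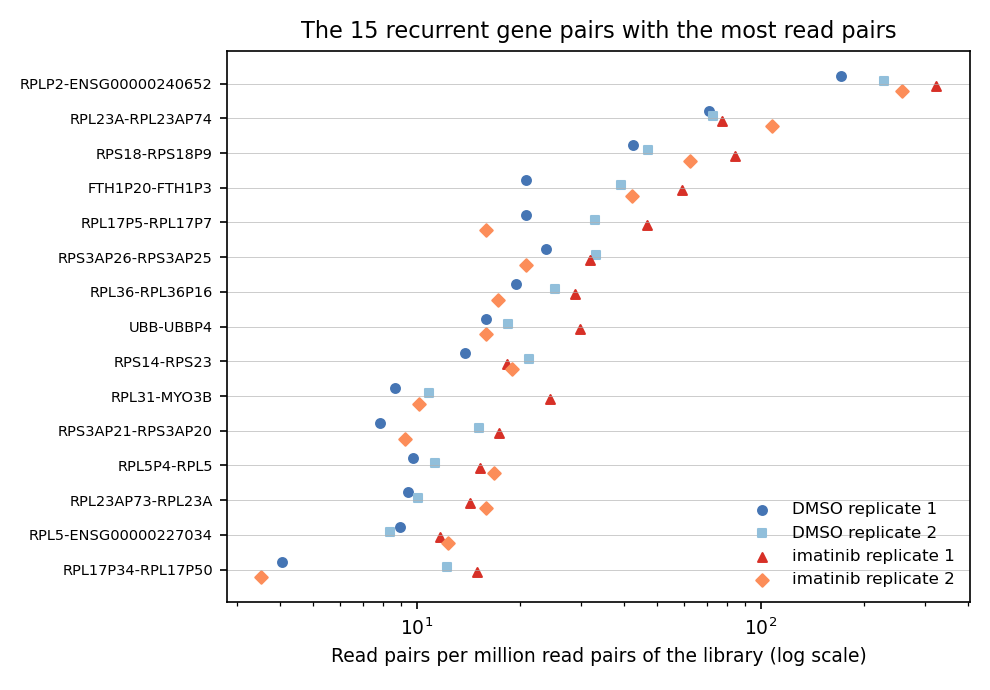
Read pairs per 1000000 read pairs of the library (x axis, log scale) for the 15 recurrent gene pairs with the most read pairs (y axis), one symbol per library. RPLP2 to ENSG00000240652 has the most in all 4 libraries; for this one and some others both imatinib symbols lie to the right of both DMSO symbols, and for the rest the conditions overlap.

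Over the 46 pairs with a common gene, 18 had only the 3′ end on a less used relative (6958 read pairs), 6 only the 5′ end (610) and 22 both (2572). For 43 of the 46 the most used relative was the same gene at both ends. Their distances ran from 2.62 to 169 Mb. Of their second genes 32 were pseudogenes, and of their first genes 26. Not all were processed copies: SSX2 to SSX3 (19 read pairs; 3, 6, 3 and 7), SSX1 to SSX2B (17; 3, 8, 4 and 2), WASHC2C to WASHC2A (11; 4, 5, 1 and 1) and ZNG1E to ZNG1C (39; 15, 15, 7 and 2) joined members of segmentally duplicated families. Of the list of such families looked up by symbol, 18 gene pairs with 73 read pairs were present over 2 Mb, and 3 of these were recurrent.

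Of the pairs whose 3′ end resembled the start gene's own poly(A) site, RPL31 to MYO3B was the most frequent, with 215 read pairs (32, 56, 104 and 23) where 0.0275 were expected. Of its 3′ ends 93.5% were at one position, shown above, and 0% lay within 200 bp of an annotated end of MYO3B. UQCRH to SLC30A7 had 98 (23, 36, 29 and 10), with 92.9% of read pairs passing the comparison of the last 20 bases, and 92.9% also ended at one position. RPS25 to LINC02755, with 51 read pairs, was alike, at 98.0%. None of the 14 had a pseudogene annotated at either end.

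In the group where one end matched a more used gene, 58 of the 66 did so at the 3′ end, 14 at the 5′ end and 6 at both. The gene matched at the 3′ end was RPL17 in 7 gene pairs with 429 read pairs and RPL9 in 8 with 191. HBG2 was matched in 5 with 127, RPL10 in 5 with 78 and H3-3A, a histone gene, in 4 with 88. RPL5 to RPL17P7 had 76 read pairs (10, 33, 28 and 5). ENSG00000237550 to RPL17P39 had 69 (6, 25, 37 and 1). RPL17 itself lies on chromosome 18, whereas these 2 pairs lay on chromosomes 1 and 15. RPS25 to HBG1 had 50 (6, 7, 19 and 18), and HBG1 and HBG2 are nearly identical, so which of them an end belongs to is uncertain.

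Of the 51 pairs in none of these groups, RPS14 to RPS23 had 281 read pairs (51, 109, 78 and 43), where 23.5 were expected, and 92.5% of its 3′ ends were at 1 position. RPL23A to RPL27 had 75 (13, 30, 22 and 10) where 7.12 were expected. Both are pairs of abundant ribosomal mRNAs just past the limit of 10 times. In 4 pairs the first gene was LINC00486, a long non-coding RNA gene that holds the homopolymer site shown above, with 143 read pairs (27, 49, 30 and 37) to RPL31, RPS27A, RPL37A and PTMA. LINC00486 started 0 ordinary pairs, so the expected number of these 4 was 0 and the condition of 10 times could not fail. The repeat group took only A runs and ends that matched many genes, so a run of G did not place a pair in it. In 5 pairs the first gene was MTCO2P12, a nuclear copy of a mitochondrial gene on chromosome 1, with 116 read pairs (27, 39, 36 and 14). The other 42 had 10 to 281 read pairs each.

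The expectation can also be built from the far ends themselves, so that a gene that is frequent among far pairs has a high expected number. By this reckoning 55 gene pairs were recurrent, of which 51 were also recurrent by the first, and they held 1635 read pairs in place of 14109. Of the 51, 29 had a common gene at both ends, 7 had one end like another gene, 3 had a 3′ end like the start gene's own site, 3 had a repeat or A run and 9 had none of these. Most of the leading pairs were not among them. RPLP2 to ENSG00000240652 had 0.610 times this expected number, RPL23A to RPL23AP74 1.55 times, RPS18 to RPS18P9 1.87 times, RPL31 to MYO3B 3.59 times and FTH1P20 to FTH1P3 3.83 times. RPL17P5 to RPL17P7 had 4.11 times, RPL36 to RPL36P16 4.67 times and UBB to UBBP4 5.91 times. A gene pair that makes up much of the far totals of its own genes raises this expected number. Among the 9 in none of the sequence groups DPH1 to EIF1 had 30 read pairs (1, 11, 15 and 3), at 28.1 times the expected number from far totals, with 93.3% of the 5′ ends at one position. DPH1 makes diphthamide and EIF1 is a translation initiation factor. RPL39 to ATRX, a chromatin remodeller, had 17 (1, 4, 9 and 3) at 13.3 times, RPS12 to HECA 16 (4, 5, 5 and 2) at 18.7 times, and SNRPC to TIAM2 16 (4, 5, 6 and 1) at 20.0 times. WDR27 to H1-2, a linker histone gene, had 14 (2, 8, 1 and 3), and SNRPF to SETD1B, a histone methyltransferase gene, 11 (3, 4, 2 and 2). These were named after their values had been seen, and with 1 to 15 read pairs per library they are close to the least that the rule accepts. The groups rest on set limits, so a pair in none of them can still have ends that are alike. The 3′ ends of SNRPF to SETD1B had 8 mismatches in 30 bases at the best alignment, as many as UQCRH to SLC30A7.

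No far pair had both ends in one gene. Gencode v44 holds 85 genes longer than 1 Mb and 7 longer than 2 Mb, and 351 ordinary pairs lay within one of the latter. The longest read pair within one gene spanned 1502 kb, in FHIT, a fragile-site gene, and was seen in DMSO replicate 2. The 0 far pairs within one gene allow up to 3 by counting error.

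The genes of the known K562 translocations gave few far pairs or none. BCR, ABL1 and XKR3 had 0 far pairs at either end, against 28, 401 and 139 ordinary 5′ ends. NUP214, the nucleoporin gene that is fused to XKR3 in K562, had 3 far 5′ ends (2, 1, 0 and 0) and 3 far 3′ ends (1, 1, 1 and 0), against 644 ordinary 5′ ends. The tables hold only pairs on one chromosome, so a join between chromosomes cannot appear in them. A join within a chromosome cannot be told apart from the other sources of a distant pair by these ends alone.

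The homopolymer site on chromosome 2 gave far pairs on both strands. On the minus strand 1053 far pairs ended there (216, 392, 330 and 115) from 175 start genes, between positions 32916200 and 32916587, and 2 ordinary pairs did. On the plus strand 304 far pairs started there (71, 111, 56 and 66) to 72 genes, and no ordinary pair did. These 2 sets had 1025 and 296 combinations, so nearly every pair had positions of its own. Another 3′ window without a gene, chr17:48874200-48874299 on the minus strand, took 475 far pairs (96, 175, 142 and 62). Of these 471 started in SUMO2, which encodes a ubiquitin-like modifier, and in 72.0% of the 475 both ends matched a common gene. A window at chr4:132528200-132528299 on the plus strand took 335 (52, 100, 151 and 32) from 58 genes, and 99.7% of these 3′ ends had 7 or more A downstream. The 3 windows thus differed in kind: a homopolymer with many start genes, a place with 2 start genes, and an A-rich place with many.

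Whether far pairs changed with imatinib was tested on the read pairs of all gene pairs at all distances with the quasi-likelihood test of edgeR, adjusted by Benjamini-Hochberg over all of them. Of 11902 gene pairs tested 1756 were called at an adjusted p under 0.05, or 14.8%, with 8.66% up and 6.09% down. Of the 27515 gene pairs over 2 Mb 93 had enough read pairs to be tested, and 8 of these were called, 7 up and 1 down. Of the 52 recurrent pairs among the 93, 1 was called. Passing the minimum count favours pairs that are frequent in one condition. In such bulk samples, fewer cells of a type and less RNA per cell cannot be told apart.

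All 7 far gene pairs that rose had a globin gene at one end. The globins over 2 Mb were HBG2 and HBG1, which encode the fetal γ chains, HBE1 for the embryonic ε chain and HBZ for the embryonic ζ chain. FTH1 to HBE1 had 3, 3, 27 and 10 read pairs in the 4 libraries, in the same order as above, a log2 fold change of 2.89 ± 0.57 (SE; edgeR adjusted p = 0.0117). FTH1 to HBG2 had 7, 15, 53 and 17 (1.98 ± 0.46; edgeR adjusted p = 0.0207) and HBZ to RPL13 5, 13, 53 and 14 (2.18 ± 0.51; edgeR adjusted p = 0.0215). RPS25 to HBG2 had 6, 24, 47 and 39 (2.03 ± 0.51; edgeR adjusted p = 0.0282). The remaining 3 were EEF1G to HBE1 with 1, 2, 13 and 7, RPS25 to HBE1 with 6, 4, 41 and 7, and RPS25 to HBG1 with 6, 7, 19 and 18. Their edgeR adjusted p-values were 0.0187, 0.0367 and 0.0430. In all 7 called pairs both imatinib libraries exceeded both DMSO libraries once scaled to library size. The same counts had chosen these 7, so the separation adds no support. The share of all gene pairs that separate in this way was not counted. The other 2 tested pairs with a globin end had 4, 9, 23 and 10 (FAU to HBG2) and 7, 9, 25 and 7 (RPS13 to HBG2) read pairs, with edgeR adjusted p-values of 0.0518 and 0.125.

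The ordinary pairs of the same globin genes rose as well. Ordinary pairs within HBZ had a log2 fold change of 2.22 ± 0.27, within HBE1 1.55 ± 0.25, within HBG2 1.37 ± 0.26 and within HBG1 2.28 ± 0.32 (edgeR adjusted p = 0.00197, 0.00583, 0.010 and 0.00328). The partners had 0.58 ± 0.24 in FTH1, -0.04 ± 0.26 in RPL13 and 0.04 ± 0.30 in RPS25. The 9 tested far pairs with a globin end had a median log2 fold change of 2.03. The 84 without one had a median of 0.17, with 0 called up and 1 down. A globin pair with few read pairs in DMSO could reach the minimum count only through the imatinib libraries. This contrast therefore follows in part from the filter.

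Counted over all partners, far 3′ ends in HBG2 numbered 93, 159, 546 and 210, in HBE1 36, 51, 306 and 79, and in HBG1 60, 65, 189 and 115. Far 5′ ends in HBZ numbered 26, 53, 676 and 126 and in HBE1 2, 2, 36 and 14. Per 1000 ordinary ends of the same gene the HBZ starts gave 6.10, 10.7, 28.4 and 11.5, and the HBG2 ends 10.4, 14.7, 25.3 and 16.1. For HBE1 ends the values were 8.09, 9.40, 20.5 and 10.4 per 1000. In these 3 imatinib replicate 1 stood above the other 3 libraries and imatinib replicate 2 lay less than 2 per 1000 above DMSO replicate 2. The HBE1 starts gave 0.397, 0.311, 2.21 and 1.68 per 1000, both imatinib libraries being higher. The HBG1 ends went the other way, with 1017, 774, 408 and 405 far ends per 1000 ordinary ones, both imatinib libraries being lower, but HBG1 had only 890 ordinary 3′ ends. HBG2 had 0 far 5′ ends beside 25629 ordinary ones, whereas HBE1 had 54 beside 36074. HBZ lies too near the start of chromosome 16 to have a far 3′ end, and had 0. The other globins gave little: HBM 6 far 5′ ends, HBA2 2, HBQ1 1, HBD 1 far 3′ end, and HBA1 and HBB 0.

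The 1 far gene pair that fell joined ENSG00000274642, an unprocessed pseudogene, to PDE4DIP, an anchoring protein of the centrosome and Golgi, 28.7 Mb apart on chromosome 1. It had 21, 25, 2 and 0 read pairs and a log2 fold change of -4.06 ± 0.75 (SE; edgeR adjusted p = 0.00922). In 100% of its read pairs both ends matched a common gene. Ordinary pairs within PDE4DIP fell as well, from 292 and 386 to 34 and 23 read pairs (-3.17 ± 0.33; edgeR adjusted p = 0.00130). ZNG1F to ZNG1A, of a duplicated gene family on chromosome 9, had 17, 23, 6 and 0 read pairs and did not pass (-2.39 ± 0.72; edgeR adjusted p = 0.0533). Under the alternatives tried, the PDE4DIP pair was called in 8 of 8, RPS25 to HBG2 in 7, FTH1 to HBE1 in 5, HBZ to RPL13 and RPS25 to HBE1 in 4, FTH1 to HBG2 in 3, RPS25 to HBG1 in 2, and EEF1G to HBE1 in 2 of the 7 that could test it. DESeq2 called 2 far gene pairs, and without imatinib replicate 2 edgeR called 20 of 153. RPLP2 to ENSG00000240652, the most frequent far pair, had a log2 fold change of 0.47 ± 0.26 (edgeR adjusted p = 0.251).

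**Figure D5:**
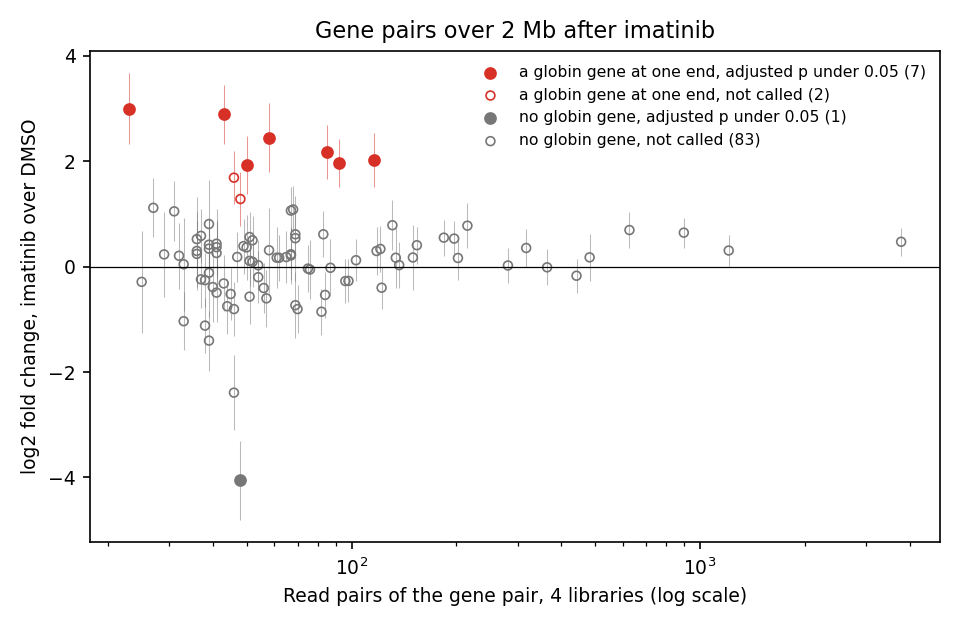
Log2 fold change of imatinib over DMSO (y axis; bars are the SE of edgeR's fit) against the read pairs of a gene pair over 4 libraries (x axis, log scale) for the 93 gene pairs over 2 Mb that could be tested. The 9 with a globin end (red) lie between 1.28 and 3.00, and of the 84 others (grey) 1 is called, at -4.06.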

How the data were processed

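The authors trimmed the reads with cutadapt 1.16, aligned both ends separately to hg38 with STAR 2.5.3a, kept unique alignments on one chromosome, collapsed PCR copies by molecular identifier and deposited raw read-pair counts per combination of end positions. In these tables the 3′ end lay downstream of the 5′ end in 100% of far pairs, so order carried no information, and expected numbers were limited to gene pairs in that order. Ends were assigned to Gencode v44 genes on the same strand. End sequences were compared with bwa 0.7.19 (40 bases, up to 4 mismatches) and BLAST+ 2.17.0 (100 bases, at least 50 aligned at 85% identity, ends matching over 200 genes taken as repeats). These sequence limits were set after values had been seen. edgeR 4.0.16 (TMM, filterByExpr, robust glmQLFit) compared the 2 imatinib with the 2 DMSO libraries, with DESeq2 1.42.0 as an alternative. edgeR was also run on simulated counts that had the same dispersion for all gene pairs and no replicate effect. That run therefore cannot show how the test handles the spread between these replicates. Replicates differed by a chi-square of 9.75 (DMSO) and 16.2 (imatinib) per degree of freedom, so none was a copy. The members, lists and tests were chosen with earlier results of these data known. By rule the text names the 25 most frequent recurrent and 10 most frequent other gene pairs, the called pairs, globin and translocation genes, and the 3 leading genes at each end. Some of these are not reported here. Other examples were chosen after their values were seen. The 3′T-fill and PacBio files were not used here.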

Additional observations from a re-analysis of the deposited data

How the results depend on the processing

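With limits of 1 Mb and 5 Mb in place of 2 Mb the mean share was 0.676% and 0.633%, in sets that hold mostly the same read pairs. The imatinib mean exceeded the DMSO mean by 0.0701 and 0.0685 percentage points. Both differences were smaller than the SD over the libraries (0.130 and 0.122). The difference in A-rich 3′ ends was 13.0 percentage points with 6 or more A and 4.40 with each position combination counted once, and that in annotated 3′ ends was -42.4 points within 100 bp. The number of recurrent gene pairs was 55 with gene totals from the far pairs, 301 and 91 with minimums of 4 and 20 read pairs, 119 without A-rich 3′ ends and 124 with both ends at annotated ends. It lay between 175 and 247 under the other planned settings that kept all libraries, though with each combination counted once 151 gene pairs were shared with the 187. Leaving out 1 library gave 126 to 192. The 2 alternatives chosen after seeing the data, leaving out pairs with a common gene or with an expected number of 0, each gave 141.

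Over all gene pairs edgeR called 822 to 3760 with 1 library left out, over 2 Mb 3 to 20, and among recurrent pairs 0 to 3, each highest without imatinib replicate 2. Over 2 Mb DESeq2 called 2. Among recurrent pairs DESeq2 called 0 of 73 (1 at an unadjusted p under 0.05) and edgeR without a count filter 0 of 187 (3). Deviations of same-numbered libraries correlated at -0.240 over 11902 gene pairs, so the numbers were not taken as pairs. With the replicate block the calls were 814 over all gene pairs, 3 over 2 Mb and 0 among recurrent pairs (3 at an unadjusted p under 0.05). With the numbers crossed, chosen after seeing the data, they were 3424, 10 and 1. The cause of these differences was not tested.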
